A study of Mus musculus with 6 samples.

Results

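The guanylate-binding proteins were followed in the livers of male wild type C57BL/6 mice, an inbred laboratory strain, at 6 months of age (adult liver) and at an age given as 3-4 weeks in the sample labels and as 1 month in the series title (young liver). They were taken as the rows of the authors' deposited gene table that carry the symbol Gbp2, Gbp3, Gbp4, Gbp5, Gbp6, Gbp7, Gbp8, Gbp9, Gbp10 or Gbp11. Of these 10 symbols, 9 had a row among the 32597 genes of the table, 4 on chromosome 3 and 5 on chromosome 5. Gbp10 was not analysed as a row of its own here and is covered below with Gbp6. Each age was represented by 3 RNA-seq libraries, each made from the pooled liver RNA of 3 mice kept under specific-pathogen-free conditions. The deposited table holds 1 value per gene and age in FPKM, fragments counted on a gene scaled by transcript length and by library depth, into which the authors had already combined the 3 libraries. No standard deviation can therefore be given, the depth behind each value is unknown, and a gene is said to have risen or fallen only where the authors' deposited table gives it a q-value (a p-value adjusted for multiple testing) under 0.05.

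Guanylate-binding proteins are large GTPases of cell-autonomous immunity. Interferon gamma binds its receptor, activates the kinases Jak1 and Jak2 and induces the transcription factor Irf1, one of the factors that drive transcription of the Gbp genes. In infected cells the proteins assemble on pathogen vacuoles and on cytosolic bacteria, where they promote membrane lysis and expose microbial products to inflammasomes. Gbp genes can be transcribed in many cell types under interferon gamma, and a whole-liver sample does not show which cells hold the transcripts. In such bulk samples, more cells of a type and more RNA per cell cannot be told apart.

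The family is shown first by the stretch that codes for its GTP-binding loop, because the likeness of the copies bears on how far their reads can be assigned. These 24 coding bases were read from GENCODE M21 transcripts (build GRCm38), 5′ to 3′, with capitals marking the bases that differ from Gbp2. They begin at base 133 of the coding region in Gbp2 and at base 127 in Gbp6.
Gbp2: ggcctctaccgcacaggcaaatcc
Gbp2b: ggcTtctaccAcacaggcaaatcc
Gbp5: ggTctTtaTcgcacaggcaaatcc
Gbp3: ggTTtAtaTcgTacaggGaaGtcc
Gbp6: ggATtGtaccgTacaggGaaGtcc
Gbp4: ggATGGtCccATacaggGaaGtcc
Gbp10: ggATGGtCccgTacTggGaaGtcc
Gbp2b and Gbp5 differ from Gbp2 at 2 and 3 of these bases, while Gbp3 and Gbp6 differ from it at 7 and 6. The stretch was identical in 4 genes of chromosome 5, Gbp6, Gbp8, Gbp9 and Gbp11, so these 24 bases alone do not tell those copies apart. Longer stretches are compared below.

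Over whole coding regions the members fell into sets by sequence. Gbp6 and Gbp10 shared 98.4% of aligned bases, and the other chromosome 5 pairs went down to 76.7%, reached in pairs with Gbp8. On chromosome 3, Gbp2 and Gbp2b (the gene long called Gbp1) shared 82.5% and Gbp3 and Gbp7 shared 76.2%, but Gbp2 and Gbp3 only 59%. Gbp3 was closer to Gbp6 of chromosome 5, with 70.9% identity, than to its own neighbour Gbp2. The shortest coding region was that of Gbp8, 1578 bases against 1917 in Gbp7, and the missing part counts as unlike in these alignments.

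**Figure D1:**
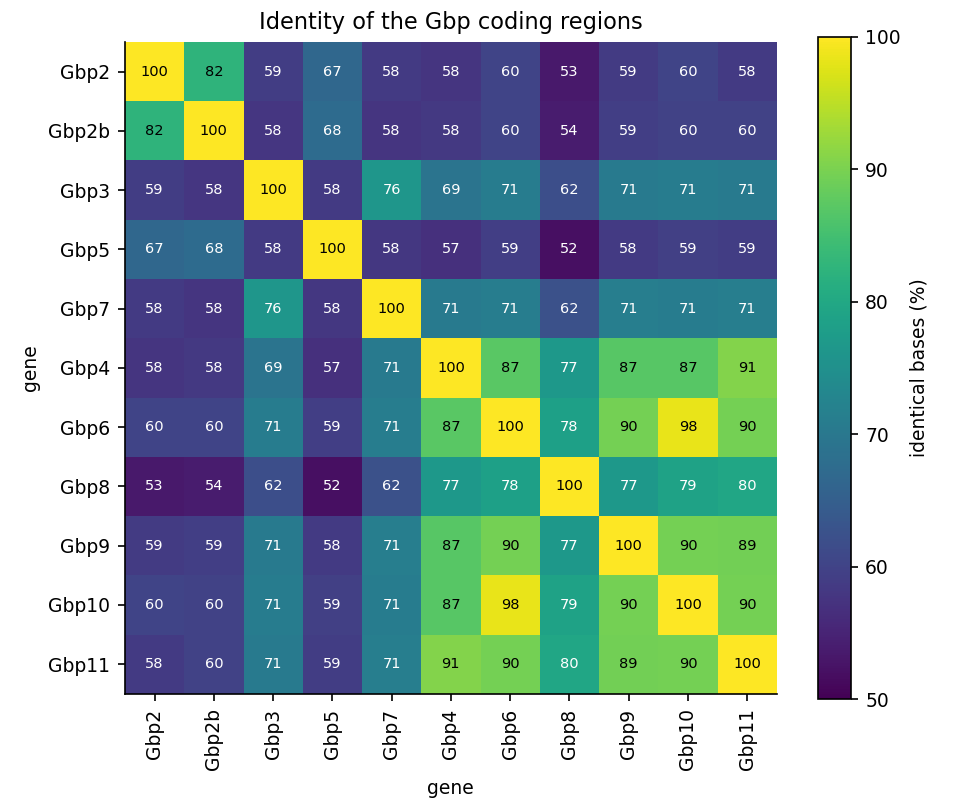
Share of identical bases (%, colour and number) in global alignments of the coding regions of 11 mouse Gbp genes, 1 transcript per gene from GENCODE M21. The chromosome 5 genes form a block between 76.7% and 98.4%, and Gbp3 and Gbp7 lie nearer to that block than Gbp2, Gbp2b and Gbp5 do.

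The effect on read assignment was measured as the share of a gene's 75-base stretches that also occur in a transcript of another of these 11 genes. It was 67.2% for Gbp10 and 42.7% for Gbp6. In the other of these 2 genes alone, 65.6% of the Gbp10 stretches and 40.4% of the Gbp6 stretches were found. For Gbp11 it was 10.3% and for Gbp8 8.04%, and for Gbp9 and Gbp4 3.61% and 3.08%. On chromosome 3 it was 2.06% for Gbp3, 1.25% for Gbp7, 0.955% for Gbp2 and 0 for Gbp5. With 50-base stretches the share was 76.2% for Gbp10 and 49.9% for Gbp6. The sources used here do not give the read length or the rule by which fragments matching several copies were counted.

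Not every row of the deposited table stands for a single annotated gene. The row named Gbp6 (ENSMUSG00000079362) runs over 78.0 kb, chr5:105215699-105293699 on the minus strand, and its span holds both Gbp10 (chr5:105215699-105239533) and Gbp6 (chr5:105270702-105293698) of GENCODE M21. Its value is therefore given here as that of the Gbp6 row, in which Gbp6 and Gbp10 cannot be told apart. The row named Gbp5 (ENSMUSG00000040264) runs over 122.2 kb, chr3:142496934-142619179 on the plus strand. Its identifier belongs to Gbp2b in M21, and its span begins in Gbp5 (chr3:142493978-142522344 in M21) and ends with Gbp2b (chr3:142594847-142619179), with Gbp7 and Gbp3, which have rows of their own, in between. What share of its fragments came from Gbp5 and from Gbp2b was not tested.

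Among the remaining rows, 3 on chromosome 5 overlap, the span of Gbp8 holding Gbp9 and Gbp4 and that of Gbp9 holding Gbp4. Gbp4 (ENSMUSG00000079363, chr5:105115767-105139586), Gbp8 (ENSMUSG00000034438, chr5:105014153-105139540) and Gbp9 (ENSMUSG00000029298, chr5:105078394-105139539) all start transcription, on the minus strand, within the same short region. In M21, annotated exons of Gbp8 share 61 bases and those of Gbp9 share 60 bases with exons of Gbp4. Gbp11 (ENSMUSG00000092021, chr5:105323042-105346472, minus strand) is listed as a polymorphic pseudogene, a gene intact in some mouse strains and broken in others. The rest of the chromosome 3 cluster, on the plus strand, consists of Gbp7 (ENSMUSG00000040253, chr3:142530338-142550083), Gbp3 (ENSMUSG00000028268, chr3:142560052-142573209) and Gbp2 (ENSMUSG00000028270, chr3:142620602-142638008).

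All 9 Gbp rows were higher in adult than in young liver, and each passed the authors' test. Genes were compared here where the authors had tested them and they reached 1 FPKM at either age, which held for 11741 genes, and of these 3.99% rose and 3.48% fell. All 9 rows were among the genes compared, and 9 rose and none fell. The Gbp5 row was under 1 FPKM in young liver and passed that filter only through its adult value, so it could only be higher. The other 8 rows were at 1 FPKM or more at both ages, and all 8 rose, where 3.38% of the genes with that level at both ages did. Summed over the 9 rows, the level was 77.8 FPKM in adult and 38.8 FPKM in young liver, a ratio of 2.01. The 4 rows of chromosome 3 summed to 34.1 FPKM in adult and 17.5 FPKM in young liver, a ratio of 1.95, and the 5 rows of chromosome 5 to 43.7 FPKM in adult and 21.3 FPKM in young liver, a ratio of 2.05. Chromosome 3 thus made up 43.9% of the family's summed level in adult and 45.2% in young liver.

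**Figure D2:**
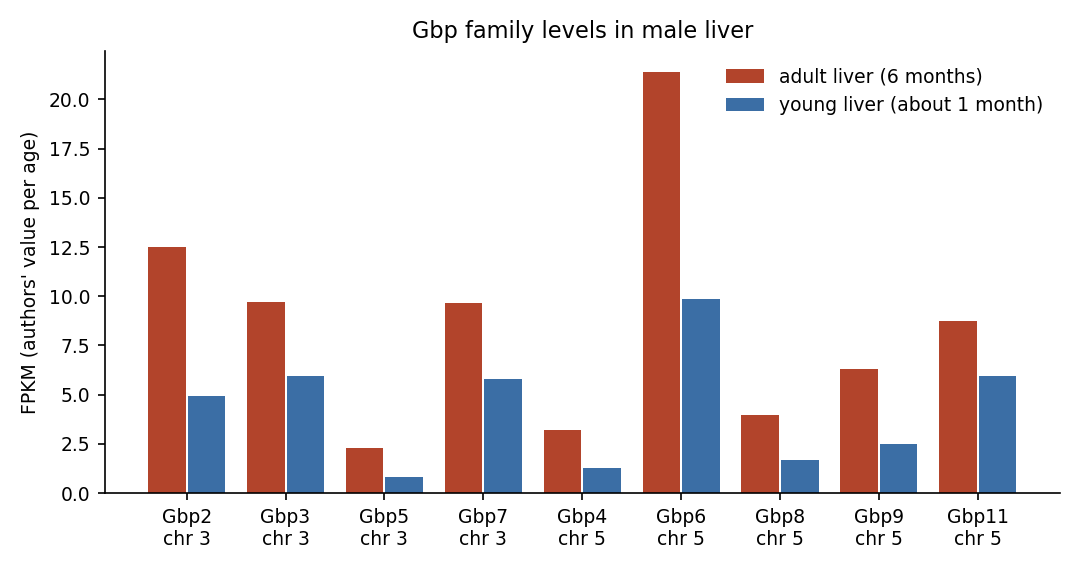
Level of each Gbp row in FPKM (vertical axis), the authors' single value per age, in adult liver (left bar) and young liver (right bar), with no error bars because the table gives none. Every adult bar stands above its young bar, with the Gbp6 row highest at both ages (21.4 FPKM in adult and 9.86 in young liver) and the Gbp5 row lowest (2.27 FPKM in adult and 0.823 in young liver).

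On chromosome 3, Gbp2, which restricts Toxoplasma and takes part in the release of bacterial products in mouse cells, was at 12.5 FPKM in adult and 4.96 FPKM in young liver. For its ratio of 2.52 the authors' deposited table gives q = 0.00189. The Gbp5 row, named for a GBP that promotes inflammasome assembly in mouse macrophages, was at 2.27 FPKM in adult and 0.823 FPKM in young liver, with the largest ratio of the family, 2.76. Gbp3, which gathers at Toxoplasma vacuoles, was at 9.72 FPKM in adult and 5.95 FPKM in young liver, a ratio of 1.63. Gbp7, which helps mouse macrophages contain intracellular pathogens, stood close to Gbp3 at both ages, with 9.64 FPKM in adult and 5.79 FPKM in young liver and a ratio of 1.66. All 4 rows of chromosome 3 share q = 0.00189, the smallest value in the authors' deposited table. Gbp2 was thus below Gbp3 and Gbp7 in young liver and above them in adult liver.

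On chromosome 5, the Gbp6 row, with Gbp6 and Gbp10, both linked to control of bacteria in mouse macrophages, was at 21.4 FPKM in adult and 9.86 FPKM in young liver, a ratio of 2.17. It alone made up 27.5% of the family's summed level in adult and 25.4% in young liver. Gbp9, which also gathers at Toxoplasma vacuoles, was at 6.29 FPKM in adult and 2.49 FPKM in young liver, a ratio of 2.52. These rows, too, stand at q = 0.00189 in the authors' deposited table.

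The other 3 rows of chromosome 5 carried larger q-values. Gbp4 was at 3.23 FPKM in adult and 1.28 FPKM in young liver, a ratio of 2.52, and the authors' deposited table gives q = 0.00494. Gbp8 was at 3.99 FPKM in adult and 1.67 FPKM in young liver, a ratio of 2.39, and the authors' deposited table gives q = 0.0269. Because Gbp4, Gbp8 and Gbp9 share exon bases, they were also summed, which gave 13.5 FPKM in adult and 5.44 FPKM in young liver, a ratio of 2.48. The polymorphic pseudogene Gbp11 was at 8.76 FPKM in adult and 5.97 FPKM in young liver, the smallest ratio of the family, 1.47. For Gbp11 the authors' deposited table gives q = 0.0424, the closest of the 9 to the threshold.

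Within the family the rows with a ratio under 2 were Gbp3, Gbp7 and Gbp11, and the other 6 rows were at 2.17 or more; among all genes compared, 4.28% had a ratio of at least 2. The 3 with the smaller ratios came directly after the Gbp6 row in young liver, in the order Gbp11, Gbp3 and Gbp7. In adult liver the order was Gbp6, Gbp2, Gbp3, Gbp7, Gbp11, Gbp9, Gbp8, Gbp4 and Gbp5, and it differed from that of young liver by the places of Gbp2 and Gbp11. The highest and lowest rows were 9.42-fold apart in adult and 12-fold apart in young liver. Whether neighbours in these orders differ beyond the spread of libraries cannot be said without values per library, nor was a difference in ratio between members tested.

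On the log2(FPKM + 1) scale, which makes changes of low genes look smaller, the members' differences ran from 0.49 in Gbp11 to 1.18 in Gbp2, with a median of 0.89 over the 9 rows. The median over all genes compared was 0.0033. For Gbp2, 288 of the 11741 genes had a larger rise on this scale, for Gbp9 324, for the Gbp6 row 328 and for Gbp11 828. The members were not among the abundant genes of the liver. Of the genes compared, 74.5% were below the Gbp6 row in adult and 58% in young liver, and for Gbp2 the shares were 63.4% in adult and 40.4% in young liver.

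The genes next to the clusters gave a local comparison. Within 500 kb of the 2 clusters, the table holds 11 further genes with a proper symbol, of which 8 were among the genes compared. None of the 8 was called in the authors' deposited table, where 7.47% of all genes compared were. Against 16.1% of all genes compared, 1 of the 8 had an unadjusted p-value under 0.05 there. That gene, on chromosome 3, was the transcription initiation factor gene Gtf2b, with 31.2 FPKM in adult and 25.1 FPKM in young liver and q = 0.367 by the authors' deposited table. The log2(FPKM + 1) differences of these neighbours ran from -0.11 to 0.30 around the chromosome 3 cluster and from -0.29 to 0.30 around that of chromosome 5, below the lowest Gbp row at 0.49. Whether the members and their neighbours differ was not tested.

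**Figure D3:**
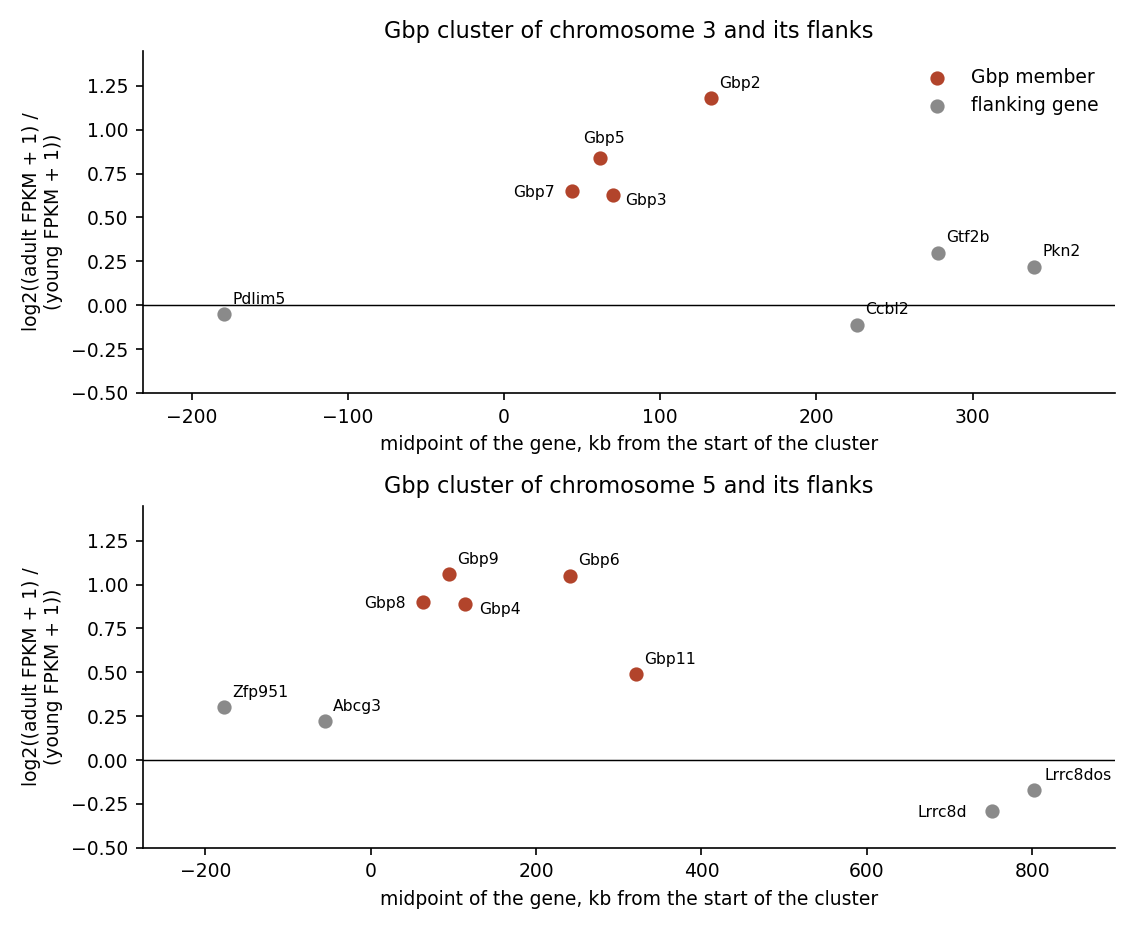
Difference between adult and young liver as log2((adult FPKM + 1)/(young FPKM + 1)) (vertical axis) against the distance of each gene's midpoint from the start of its Gbp cluster in kb (horizontal axis), for chromosome 3 (top) and chromosome 5 (bottom). The Gbp rows lie between 0.49 and 1.18 and the 8 flanking genes between -0.29 and 0.30.

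Promoters were examined because Gbp genes are known targets of interferon gamma and of interferon regulatory factors. RefSeq windows of 300 bases on build GRCm38.p6, from 250 bases before to 50 after the annotated start, were at hand for 4 members, all on chromosome 3; Gbp4, Gbp6, Gbp8, Gbp9, Gbp10 and Gbp11 had no entry. Both strands were searched for GAAANNGAAA, a core of the interferon-stimulated response element (ISRE) that interferon regulatory factors bind, and for TTCNNNGAA, the gamma-activated site (GAS) found in promoters that interferon gamma induces. The windows of the 4 members follow, 5′ to 3′ on the plus strand, with the matches to either motif in capitals. They are Gbp2 at chr3:142620413-142620712, Gbp3 at chr3:142559794-142560093, Gbp5 at chr3:142496684-142496983 and Gbp7 at chr3:142530086-142530385.
Gbp2: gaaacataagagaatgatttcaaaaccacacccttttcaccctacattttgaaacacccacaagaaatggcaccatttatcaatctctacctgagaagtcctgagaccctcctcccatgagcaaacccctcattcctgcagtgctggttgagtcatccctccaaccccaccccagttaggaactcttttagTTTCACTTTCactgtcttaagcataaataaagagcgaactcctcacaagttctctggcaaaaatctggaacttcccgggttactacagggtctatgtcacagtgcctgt
Gbp3: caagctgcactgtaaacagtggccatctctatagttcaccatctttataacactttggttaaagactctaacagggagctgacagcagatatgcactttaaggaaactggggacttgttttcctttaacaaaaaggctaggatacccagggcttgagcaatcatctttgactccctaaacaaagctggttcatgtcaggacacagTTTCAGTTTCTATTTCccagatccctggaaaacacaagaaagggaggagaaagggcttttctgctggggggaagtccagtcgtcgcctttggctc
Gbp5: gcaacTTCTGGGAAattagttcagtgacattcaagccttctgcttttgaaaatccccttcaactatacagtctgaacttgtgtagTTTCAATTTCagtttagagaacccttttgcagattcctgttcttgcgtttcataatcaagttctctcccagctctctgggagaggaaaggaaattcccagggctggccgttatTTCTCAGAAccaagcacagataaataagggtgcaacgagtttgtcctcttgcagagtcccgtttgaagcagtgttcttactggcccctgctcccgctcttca
Gbp7: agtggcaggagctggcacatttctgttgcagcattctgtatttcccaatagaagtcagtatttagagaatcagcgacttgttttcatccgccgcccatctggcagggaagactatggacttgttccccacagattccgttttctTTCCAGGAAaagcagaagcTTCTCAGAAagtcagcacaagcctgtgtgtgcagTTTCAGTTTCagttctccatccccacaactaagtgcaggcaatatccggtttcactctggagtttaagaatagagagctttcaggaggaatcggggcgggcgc
ISRE letters stood in the windows of all 4 members, where 3.44% of the 32851 promoter windows of the RefSeq table hold them. In Gbp2 they began at base -59 from the start site, in Gbp7 at -53 and in Gbp5 at -165. Gbp3 held 2 overlapping matches, beginning at -45 and -39, and a second annotated start of Gbp3 held none. GAS letters stood in 2 members, at -245 and -52 in Gbp5 and at -106 and -87 in Gbp7, where 8.3% of all windows hold them. Gbp2b, whose locus shares the Gbp5 row, had ISRE letters at -137. A match of letters is a description of the sequence, and no binding was measured in these livers.

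**Figure D4:**
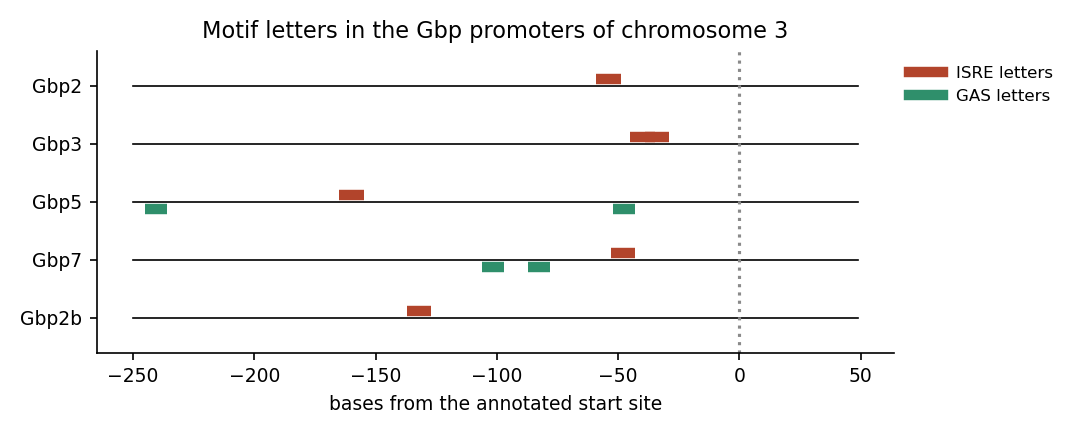
Places of the ISRE letters (upper marks) and GAS letters (lower marks) in the 300-base RefSeq promoter windows of Gbp2, Gbp3 (upstream start), Gbp5, Gbp7 and Gbp2b, in bases from the annotated start site (dotted line). ISRE letters lie at -59 in Gbp2, -53 in Gbp7 and -45 and -39 in Gbp3, and farther upstream in Gbp5 (-165) and Gbp2b (-137).

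Of the genes reported here that act before the GBPs or inhibit that signalling, those called were Irf1, Socs1 and Socs3, all risen. Interferon gamma itself, Ifng, was at 0.318 FPKM in adult and 0.049 FPKM in young liver, too low to enter the comparison, and the authors' deposited table gives it q = 0.431. Of the receptor chains, Ifngr1 was at 11.7 FPKM in adult and 14.7 FPKM in young liver and Ifngr2 at 10.7 FPKM in adult and 8.76 FPKM in young liver, and neither was called. Of 12 genes of the signalling chain and its inhibitors, 3 rose and none fell, where 3.99% and 3.48% of all genes compared did. The median log2(FPKM + 1) difference of the 12 was 0.04. Irf1 was at 21.1 FPKM in adult and 12.6 FPKM in young liver, a ratio of 1.67, for which the authors' deposited table gives q = 0.00189. The feedback inhibitors of Jak signalling rose as well, Socs1 to 1.26 FPKM in adult liver against 0.242 in young, and Socs3 to 6.03 FPKM in adult liver against 1.57 in young, and Socs1 entered the comparison through its adult value alone.

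Other interferon-induced GTPases were set beside the GBPs. Of 9 such genes in the table, 7 were compared, with a median of 0.81 on the log2(FPKM + 1) scale. Of the 7, 4 rose and none fell, where 3.99% and 3.48% of all genes compared did. The immunity-related GTPase Iigp1, which loosens pathogen vacuoles, was far above any Gbp row, with 463 FPKM in adult and 285 FPKM in young liver. Tgtp1 rose to 44.1 FPKM in adult liver against 7.65 in young, but its near copy Tgtp2 can share its reads. Igtp was at 86.3 FPKM in adult and 30.4 FPKM in young liver, and Irgm2, a regulator of this family, at 41.1 FPKM in adult and 23.1 FPKM in young liver. Requiring q under 0.01 by the authors' deposited table left 2 of these 4 called. ISRE letters stood in the RefSeq windows of 5 of the 5 list genes that have one. Counted in the same way, they stood in 3 of 11 genes of the signalling list. Of the lists described next, they stood in 1 of 9 gamma targets, 8 of 14 type I targets, 0 of 7 conjugation genes and 0 of 7 inflammasome genes. GAS letters stood in 4 of the 5 other GTPases and in 4 of 11 signalling genes. They stood in 1 of 9 gamma targets, 2 of 14 type I targets, 2 of 7 conjugation genes and 0 of 7 inflammasome genes. Of all promoter windows, 3.44% hold ISRE letters and 8.3% GAS letters.

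Interferon targets outside these GTPases were followed in a list for interferon gamma and in another for type I interferon. Among all genes compared, 3.99% rose and 3.48% fell. Of 13 gamma targets compared, 6 rose and none fell, with a median of 0.71 on the log2(FPKM + 1) scale. They were the ubiquitin-like Ubd, the T cell attracting chemokines Cxcl9 and Cxcl10, the checkpoint ligand Cd274, the immunoproteasome subunit Psmb8 and the class I transactivator Nlrc5, with ratios from 1.65 (Psmb8) to 11.5 (Ubd). Cd274, at 3.49 FPKM in adult and 0.842 FPKM in young liver, entered the comparison through its adult value alone and could only be higher. Of 16 type I targets, 1 rose and 4 fell, with a median of -0.36. Zbp1, a nucleic acid sensor, was the 1 that rose, with 23.4 FPKM in adult and 11.7 FPKM in young liver. The 4 that fell were the ubiquitin-like Isg15, the antiviral Rsad2, the RNA sensor Ddx58 and Ifit3, with ratios of 0.518, 0.566, 0.638 and 0.678. The difference between the lists was not tested.

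Partners of the GBPs were followed as a conjugation set and an inflammasome set. Of 10 genes of the conjugation system that mouse GBPs need to reach vacuoles, none was called in the authors' deposited table. Among all genes compared, 7.47% were called there. None of the 10 had an unadjusted p-value under 0.05 there, against 16.1% of all genes compared. With so few genes, 0 calls are near these shares. The median of the 10 genes was 0.11 on the log2(FPKM + 1) scale. The most abundant, Gabarap and Gabarapl1, were at 274 and 191 FPKM in adult and at 271 and 156 FPKM in young liver. Where 3.99% of all genes compared rose and 3.48% fell, 3 of 7 inflammasome genes compared rose and none fell, with a median of 0.65. They were the cytokine Il1b (7.41 FPKM in adult and 3.01 in young liver), the protease Casp1 (4.46 FPKM in adult and 2.43 in young liver) and the adaptor Pycard (2.32 FPKM in adult and 1.12 in young liver).

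**Figure D5:**
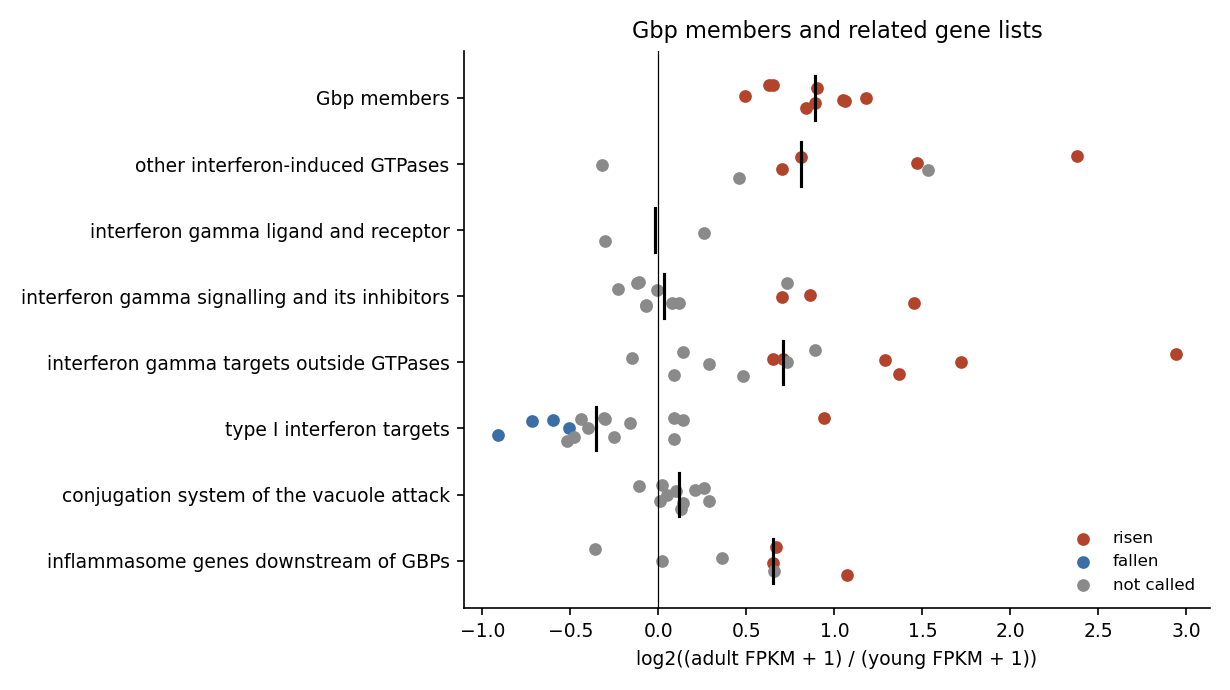
Difference between adult and young liver as log2((adult FPKM + 1)/(young FPKM + 1)) (horizontal axis) for each gene compared, by list; points are coloured by the call from the authors' q-value and moved apart vertically at random, and black bars are medians. The 9 Gbp rows all rose, with a median of 0.89, against medians of 0.81 for the other interferon-induced GTPases, 0.71 for gamma targets and -0.36 for type I targets.

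Most T and NK cell markers compared rose, as the Gbp rows did, but most of these could only be higher, given the filter. Markers of other immune cells were called in part or not at all. Among all genes compared, 3.99% rose and 3.48% fell. The part of any immune cell type in the rise of the Gbp rows was not tested. Markers of T and NK cells summed to 54.5 FPKM in adult and 9.94 FPKM in young liver over the 15 in the table, and 7 of 9 compared rose, led by Ccl5 (30 FPKM in adult and 3.23 in young liver) and Nkg7 (4.95 FPKM in adult and 0.846 in young liver). Of the 9, 7 had less than 1 FPKM in young liver and entered the comparison through their adult values alone, so these could only be higher. Of the markers at 1 FPKM or more at both ages, Ccl5 rose and the NK receptor gene Klrd1 was not called (ratio 1.31, q = 0.847 by the authors' deposited table). The NK receptor genes Klrb1c and Ncr1 were too low to be compared (ratios 1.36 and 1.2). Markers of Kupffer cells and macrophages summed to 521 FPKM in adult and 422 FPKM in young liver over 12 genes, of which 3 rose, among them Mpeg1 (56.3 FPKM in adult and 20.6 in young liver) and Marco (25.5 FPKM in adult and 13.8 in young liver). The other 9 were not called, and 4 of them, named here after their values were seen, were not higher in adult liver. The Kupffer cell lectin Clec4f was at 57.7 FPKM in adult and 79.6 FPKM in young liver (q = 0.291 by the authors' deposited table), and the ratios of Csf1r, Vsig4 and Timd4 were 0.972, 0.996 and 0.957. B and plasma cell markers summed to 96.6 FPKM in adult and 60.3 FPKM in young liver, with Ighm and Igkc risen of 4 compared. Dendritic cell markers summed to 4.01 FPKM in adult and 2.5 FPKM in young liver, and neither of the 2 compared, Zbtb46 and Clec9a, was called. Itgax, at 0.934 FPKM in adult and 0.121 in young liver, was too low to be compared. For it the authors' deposited table gives q = 0.00189. Also too low were Flt3, Xcr1 and Siglech, higher in adult liver (ratios 1.44, 1.29 and 1.42), and Cd209a, lower (0.875). Neutrophil and monocyte markers summed to 24.4 FPKM in adult and 23.7 FPKM in young liver, with Ccr2 risen of 6 compared. Ccr2 was at 2.44 FPKM in adult and 0.926 FPKM in young liver, so that it entered through its adult value alone and could only be higher. The other 5 compared were not called. S100a8 and Ly6g were lower in adult liver (ratios 0.883 and 0.677), and S100a9, Ly6c2 and Csf3r were not (1.02, 1.48 and 1.87). Elane and Mpo, both lower in adult liver, were too low to be compared. No marker of these immune lists was listed at 0 at both ages.

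Markers of endothelial cells and hepatocytes summed to less in adult than in young liver. Endothelial markers summed to 94.7 FPKM in adult and 112 FPKM in young liver, and of 10 compared 1 fell, the hyaluronan receptor Lyve1, to 3.47 FPKM in adult liver against 6.44 in young. Hepatocyte markers summed to 22682 FPKM in adult and 26196 FPKM in young liver, and of 9 compared 1 fell, the urea cycle enzyme Ass1, to 637 FPKM in adult liver against 1019 in young. The other 8 compared were not called. Among them Cyp2e1 and Hnf4a were higher in adult liver (ratios 1.57 and 1.05) and the rest lower. Of all genes compared, 3.48% fell. The hepatocyte levels match the labelled tissue except for albumin, Alb, which is listed at 0 at both ages with the authors' status LOWDATA. Summed over all genes, the table held 765940 FPKM in adult and 762084 FPKM in young liver.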

How the data were processed

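Per the labels' protocols, total RNA of 3 pooled livers per library was sequenced after an Illumina TruSeq RNA preparation, with 3 libraries per age. Build GRCm38, TopHat2 2.0.11, Cufflinks 2.2.1 and Cuffdiff are listed in the submitters' processing notes; for the annotation release and the library normalization, the sources used here state nothing. The authors deposited FPKM values, 1 per gene and age, with each gene's log2 fold change, p-value, q-value and test score. Their p-values rest on pools, which even out differences between single mice.

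From these, ratios and log2((adult FPKM + 1)/(young FPKM + 1)) were computed for genes of status OK with at least 1 FPKM at either age (Python 3.11.15, pandas 2.3.3). No test was run here: calls are those of the authors' deposited q-value under 0.05. Of the genes compared, 483 share the smallest p-value in the authors' deposited table, 5e-05, among them 6 members. Coding regions were aligned with Biopython 1.88. The functions were tested on simulated data. All members are named; of each pathway list up to 6 called genes with the largest difference, or the 2 most abundant where none was called, and of each cell type list 2 (a few values are given as ranges). Adgre1 and Jchain were found under older symbols. Irgb6 and Trbc2 had no match under their own symbol or under a synonym not already listed as another gene. One gene of the signalling list is not reported here, and the list's counts and median were computed without it. The members and lists were chosen with earlier results of these data known. Alternatives to the minimum FPKM, the q-value threshold, the pseudocount and the scaling were tried.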

Additional observations from a re-analysis of the deposited data

How the results depend on the processing

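The number of Gbp rows called was 9, and it was 9 with no minimum FPKM and at an unadjusted p-value under 0.05. It was 6 with a minimum of 5 FPKM, which only those 6 rows reached, and 7 with q under 0.01 by the authors' deposited table. The shares of all genes risen under these settings were 3.74%, 8.51%, 4% and 2.96%. Without the Gbp5 and Gbp6 rows, whose values cannot be given to 1 annotated gene, it was 7 (chosen after seeing the data). The median log2 fold of 0.89 became 1.21 with a pseudocount of 0.1 and 1.26 with none, since a smaller pseudocount weakens the pull towards 0 in low genes. Rescaling both ages to the same total or the median gene to a ratio of 1 moved the ratio of the ages by at most 0.007 in log2. Scaling each age up to the total of TPM values, where a pseudocount of 1 weighs less, gave a median of 0.96.

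Alternatives for the lists were added after seeing the data. With q under 0.01 by the authors' deposited table, 2 other interferon-induced GTPases were called in place of 4, where 5.18% of all genes were. At an unadjusted p-value under 0.05 there, 10 type I targets, 5 inflammasome genes and 1 flanking gene were called, against 5, 3 and 0. That threshold called 16.1% of all genes compared. Of the 10 type I targets, 9 were lower and 1 was higher in adult liver. With a minimum of 5 FPKM, only Il1b, Gsdmd and Il18 of the inflammasome genes were compared. Of these 1 was called, where 7.45% of all genes were.

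No paired analysis was possible because the table gives 1 value per age and none per library, and for the same reason leaving out each library in turn was not run. Depth is unknown, so no floor or interval can be given for low rows such as Gbp5 and Gbp4.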
